A study of Saccharomyces cerevisiae with 4 samples.

Results

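The ribonucleotide reductase genes RNR1 and RNR4 of budding yeast and the inhibitor genes HUG1 and SML1, 4 genes in all, were examined for histone H3 phosphorylated at threonine 45 (H3T45p) and for total H3. The members were the windows of 150 bp whose midpoint fell in 1 of 3 loci, chromosome 5 from 297.5 to 303.0 kb (RNR1), chromosome 7 from 854.0 to 858.5 kb (RNR4) and chromosome 13 from 157.5 to 160.5 kb (HUG1 and SML1). The windows were taken by position, and the 4 genes were chosen with earlier results of these data known. It gave 37, 30 and 20 windows, 87 of the 81046 windows of the series, of which 80474 are nuclear. Each signal is a number of sequencing reads per window that the authors divided by 1 factor per library.

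The libraries came from chromatin immunoprecipitation and sequencing (ChIP-seq) in the laboratory strain BY4741, a haploid derivative of S288C. Cells in rich medium at mid-log phase, not synchronised as far as the labels say, had either been given hydroxyurea at 200 mM for 2 h or were untreated. In each treatment 1 library was made with an antibody to H3T45p and 1 with an antibody to total H3 (raised to its C-terminal end), so the 4 groups of 1 library each were H3T45p in hydroxyurea, H3 in hydroxyurea, H3T45p in untreated cells and H3 in untreated cells. No group has a replicate, so no p-value is given. No library of input DNA or of an unspecific antibody is among the 4. Unspecific recovery of DNA by either antibody can therefore not be told apart from its signal. The number in the sample titles is 1 for the pair from treated cells and 2 for the pair from untreated cells, so a batch that this number might mark and the treatment cannot be told apart. The libraries held 23575911 to 28688895 reads in nuclear windows, and the median nuclear window had a signal of 277 to 289. Such values do not give an amount of H3T45p in a cell, and every change is relative to the rest of the genome. Below, treated cells are those given hydroxyurea.

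Ribonucleotide reductase makes the deoxynucleotides from which DNA is built. RNR1 encodes the large subunit, which carries the active site, and RNR4 encodes one of the small subunits, which works as a partner of Rnr2. Sml1 binds the large subunit and inhibits it, and Hug1 is a small protein of the same class of inhibitors that acts on the small subunit. Hydroxyurea inhibits the enzyme and stalls replication forks. The checkpoint kinases Mec1, Rad53 and Dun1 then raise transcription of RNR4 and HUG1, through release of the repressor Rfx1 (also named Crt1), and mark the Sml1 protein for degradation. RNR1 is transcribed at the start of S phase through the factor MBF. Threonine 45 of H3 sits beside the DNA at the entry and exit of the nucleosome.

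Genes were placed at the positions given with the loci, with RNR1 at 299.0 to 301.6 kb of chromosome 5 on the plus strand, RNR4 at about 855.3 to 856.4 kb of chromosome 7 on the minus strand, and HUG1 at about 158.8 to 159.0 kb and SML1 at about 159.1 to 159.5 kb of chromosome 13, both on the plus strand. The promoter side is the 500 bp upstream of each gene, except that for SML1 it is the short stretch left after HUG1. The genome build of the files was not given in the sources used here. In the RefSeq annotation of assembly R64, RNR1 (YER070W) is 2667 bp long, RNR4 (YGR180C) 1038 bp, HUG1 (YML058W-A) 207 bp and SML1 (YML058W) 315 bp, and HUG1 and SML1 are separated by 416 bp. That spacing, counted from the HUG1 start used here, would put SML1 at about 159.4 to 159.7 kb, and the H3 signal goes the same way. The window chr13:159151-159300, which was counted as SML1 body, had an H3 signal of 68.9 in treated and 50.2 in untreated cells, while the 3 windows from chr13:159301 to 159750 had 389 to 712 in treated and 319 to 695 in untreated cells. Values for SML1 are therefore given for both placements.

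Across the 3 loci H3T45p was higher relative to H3 in hydroxyurea than in untreated cells. The change is the log2 ratio of H3T45p over H3 in hydroxyurea minus that in untreated cells, with 28.3, which is 10% of the median nuclear signal, added to each signal, and a window counts as changed when this is at least 0.5 in size. It was higher in 40 of the 87 windows (46.0%) and lower in 0, where 11.1% of all nuclear windows were higher and 8.76% lower. By locus the higher windows were 16 of 37 at RNR1, 17 of 30 at RNR4 and 7 of 20 at HUG1 and SML1. The median change over the windows was 0.38 at RNR1, 0.56 at RNR4 and 0.26 at HUG1 and SML1, against 0.02 over all nuclear windows. H3 itself was lower by 0.5 or more in 16 of the 87 windows, where 6.84% of all nuclear windows were, and higher by as much in 0, where 4.09% were. H3T45p was higher by 0.5 or more in 21 windows, where 8.59% of all nuclear windows were, and lower in 1, where 6.65% were. Among the 40 windows with a higher ratio, H3 was lower by 0.5 or more in 16, H3T45p was higher by 0.5 or more in 20, both held in 5 and neither in 9. The change of the ratio is by its definition the difference between both changes, so these counts describe its make-up and are no separate result.

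Over the whole genome the change of the ratio moves with the H3 level, so the windows were also set against windows of a like H3 signal, a split chosen after the data had been seen. Untreated H3 is itself a term of the change, so counting error in it can make part of this trend. Of the 49 windows at or above the nuclear median of untreated H3, 24 were higher (49.0%), where 15.7% of such nuclear windows were. Of the 38 windows under that median, 16 were higher (42.1%), where 6.58% were. The shares of runs of windows given below are over all levels of H3. The scale of the libraries also matters. With each library scaled to its total of nuclear reads, the median change of all nuclear windows shifts by -0.13, and 26 of the 87 windows were higher and 1 lower, where 5.61% of nuclear windows were higher and 15.8% lower.

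The log2 ratio of H3T45p over H3 has a median of 0 over the nuclear windows in each treatment. Within treated cells this ratio was 0.5 or more in 37 of the 87 windows (42.5%), where 5.4% of nuclear windows were. It was -0.5 or less in 0, where 2.68% were. Within untreated cells it was 0.5 or more in 4 windows, where 3.83% were, and -0.5 or less in 2, where 5.51% were. In the peaks that the authors called for H3T45p in treated cells lay 9 of the 87 windows (10.3%), where 1.49% of nuclear windows did. They belong to 4 peaks, of which 2 were at RNR1 and 2 at RNR4. No window of the loci lay in the peaks called in untreated cells, which hold 0.159% of nuclear windows. The lists carry no score.

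**Figure D1:**
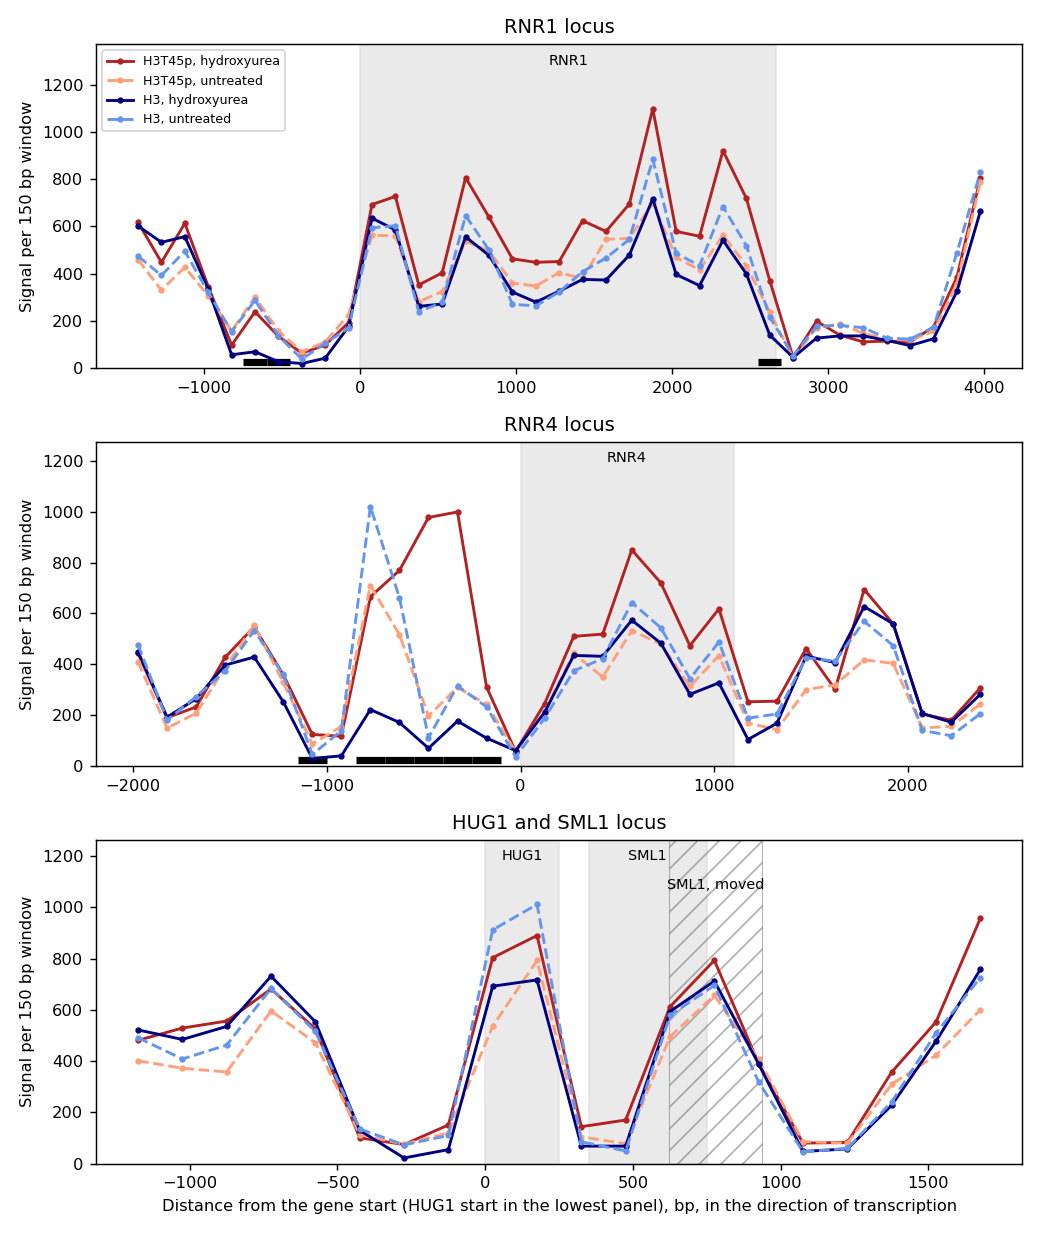
Deposited signal per 150 bp window of the 4 libraries against distance from the gene start in the direction of transcription, at each locus. Grey spans are the genes as placed, the hatched span is SML1 by the RefSeq spacing, and black bars are the windows of the authors' hydroxyurea peaks. In front of RNR4 the H3T45p signal in hydroxyurea reached 999 where the H3 signal was 177.

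At RNR1, the large subunit, H3 was lower in treated cells in some windows upstream of the gene, and H3T45p over H3 was higher in the body. The change of H3 was past -1 in 3 windows in a row, 0.45 to 0.9 kb before the gene, in the stretch of 948 bp that R64 has between ARG56 and RNR1. At chr5:298201-298350 the H3 signal was 69.8 in treated and 288 in untreated cells, 0.243 times as high (0.186 to 0.313, here and below the exact binomial interval at 95%, which covers counting error only). H3T45p there was 239 in treated and 301 in untreated cells. This window had the highest change of the ratio at the locus, 1.39, and the change of H3 was -1.69, a value as low or lower in 21 of the 80474 nuclear windows. At chr5:298351-298500 H3 was 28.1 in treated and 137.9 in untreated cells, and H3T45p was 135 in treated and 158 in untreated cells. The plain ratio of H3T45p over H3, with nothing added, was thus 4.82 (3.22 to 7.41) in treated and 1.15 (0.908 to 1.45) in untreated cells. The authors' peak at chr5:298201-298500 covers both windows, and the call in treated cells favours a high ratio there. At chr5:298051-298200 both signals were lower, H3 with a change of -1.10 and H3T45p with one of -0.56, and it is the single window of the 87 whose H3T45p fell past 0.5.

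From its mean signals, the 500 bp next to RNR1 differed less. The mean H3T45p signal of its 3 windows was 118 in treated and 136 in untreated cells, and the mean H3 signal was 79.7 in treated and 104.7 in untreated cells. The change of the ratio was 0.13, of H3T45p -0.17 and of H3 -0.30, all under 0.5 in size. As a mean of window log2 values the ratio was at 0.30 and H3 at -0.45. The middle window, chr5:298651-298800, had changes of 0.77 in the ratio and -0.92 in H3. Its H3 signal was 42.6 in treated and 105.4 in untreated cells. The window with the least H3 was chr5:298501-298650, with 19.9 in treated and 38.4 in untreated cells, which are 22 reads in treated and 39 in untreated cells. The window next to the gene, which starts at chr5:298801, had the lowest change of the ratio at the locus, -0.25. Its H3T45p signal was 193 in treated and 227 in untreated cells, and its H3 signal 177 in treated and 170.3 in untreated cells. Of the 4 windows upstream of RNR1 whose H3 fell by 0.5 or more, 3 lay in the upstream flank, outside the promoter side. Over the 7 windows of this flank the change of the ratio was 0.25 and that of H3 -0.05. With windows under 25% of the median H3 left out, the change of H3 was 0.08 in the flank. On the promoter side it was then 0.05, from 1 window.

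In the body of RNR1 H3T45p was above its untreated signal in all 18 windows, by 0.08 to 0.69 on the log2 scale, and by 0.5 or more in 6. The mean H3T45p signal was 618 in treated and 454 in untreated cells, and the mean H3 signal 416 in treated and 465 in untreated cells. The ratio of H3T45p over H3 was 1.49 (1.44 to 1.53) in treated and 0.977 (0.948 to 1.01) in untreated cells. Its change was 0.57, and 4.21% of all runs of 18 consecutive nuclear windows were higher by 0.5 or more. It was under 0.5, at 0.47, with 50% of the median added and, at 0.40, with libraries scaled to their nuclear totals. The change was larger in the 3′ part of the body. In the 9 windows of the 5′ part it was 0.34, with a mean H3 signal of 413.0 in treated and 413.2 in untreated cells, and 1 window was higher by 0.5 or more. In the 9 windows of the 3′ part it was 0.77, with a mean H3 signal of 419 in treated and 516 in untreated cells, and 8 windows were higher. Of runs of 9 windows in the genome, 5.98% were higher by 0.5 or more. The highest H3T45p signal of the locus in treated cells, 1098, was at chr5:300751-300900, against 699 in untreated cells. The last window of the gene, chr5:301501-301650, is a peak of the authors' hydroxyurea list, a call that favours a high ratio in treated cells. The ratio there was 2.64 (2.17 to 3.22) in treated and 1.10 (0.912 to 1.32) in untreated cells. Both signals were low just past the end, at chr5:301651-301800, where H3T45p was 45.5 in treated and 42.9 in untreated cells and H3 was 45.3 in treated and 53.2 in untreated cells.

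RNR4, the small subunit, had the largest changes of the 3 loci, over 5 windows in front of the gene. They form the authors' peak at chr7:856501-857250, with a mean H3T45p signal of 744 in treated and 395 in untreated cells and a mean H3 signal of 149.9 in treated and 468 in untreated cells. The ratio of H3T45p over H3 was 4.97 (4.60 to 5.37) in treated and 0.844 (0.795 to 0.896) in untreated cells. The call in treated cells favours a high ratio there, so these values describe the peak. The change of H3 was between -0.51 and -2.07 in each of the 5 windows. H3T45p was higher by 0.5 or more in 3 of them.

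H3 and H3T45p did not move in the same windows to the same extent. On the side nearer to the gene H3T45p rose. At chr7:856801-856950 it was 977 in treated and 197 in untreated cells, 4.96 times as high (4.25 to 5.81), and H3 was 69.8 in treated and 111 in untreated cells. The ratio was 14.0 (11.1 to 17.9) in treated and 1.77 (1.40 to 2.25) in untreated cells. The change of the ratio, 2.67, was the highest of the 87 windows, and 16 nuclear windows, this one included, were as high or higher. The change of H3T45p, 2.16, was as high or higher in 10. The highest H3T45p signal of the locus in treated cells was next to it, at chr7:856651-856800, with 999 in treated and 309 in untreated cells, where H3 was 177 in treated and 315 in untreated cells. At chr7:856501-856650 H3T45p was 311 in treated and 243 in untreated cells, and H3 was 109.6 in treated and 232 in untreated cells.

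On the far side H3 fell in windows that were rich in it in untreated cells. At chr7:857101-857250 the H3 signal was 222 in treated and 1020.1 in untreated cells, and the untreated value is 3.65 times the nuclear median. H3 was thus 0.218 times that of untreated cells (0.189 to 0.250). The change of H3, -2.07, was as low or lower in 2 of the 80474 nuclear windows, this one included. H3T45p in the same window was 666 in treated and 709.8 in untreated cells, 0.938 times as high (0.840 to 1.05), so the ratio was higher by 1.98 while the interval of the H3T45p quotient includes 1. At chr7:856951-857100 H3 was 171 in treated and 662 in untreated cells, with a change of -1.79 that 10 nuclear windows reached, and H3T45p was 769 in treated and 517 in untreated cells. At chr7:857251-857400 both signals were lower in treated cells. H3 was 39.9 in treated and 139 in untreated cells, and H3T45p was 117 in treated and 155.0 in untreated cells. The next window, chr7:857401-857550, is a peak by itself with few reads of H3, at 29.9 in treated and 45.3 in untreated cells, and H3T45p at 124 in treated and 86.8 in untreated cells. In R64 the next gene on this side is a tRNA gene, 1076 bp from RNR4. How reads from repeated sequence such as tRNA genes were counted was not given in the sources used here.

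**Figure D2:**
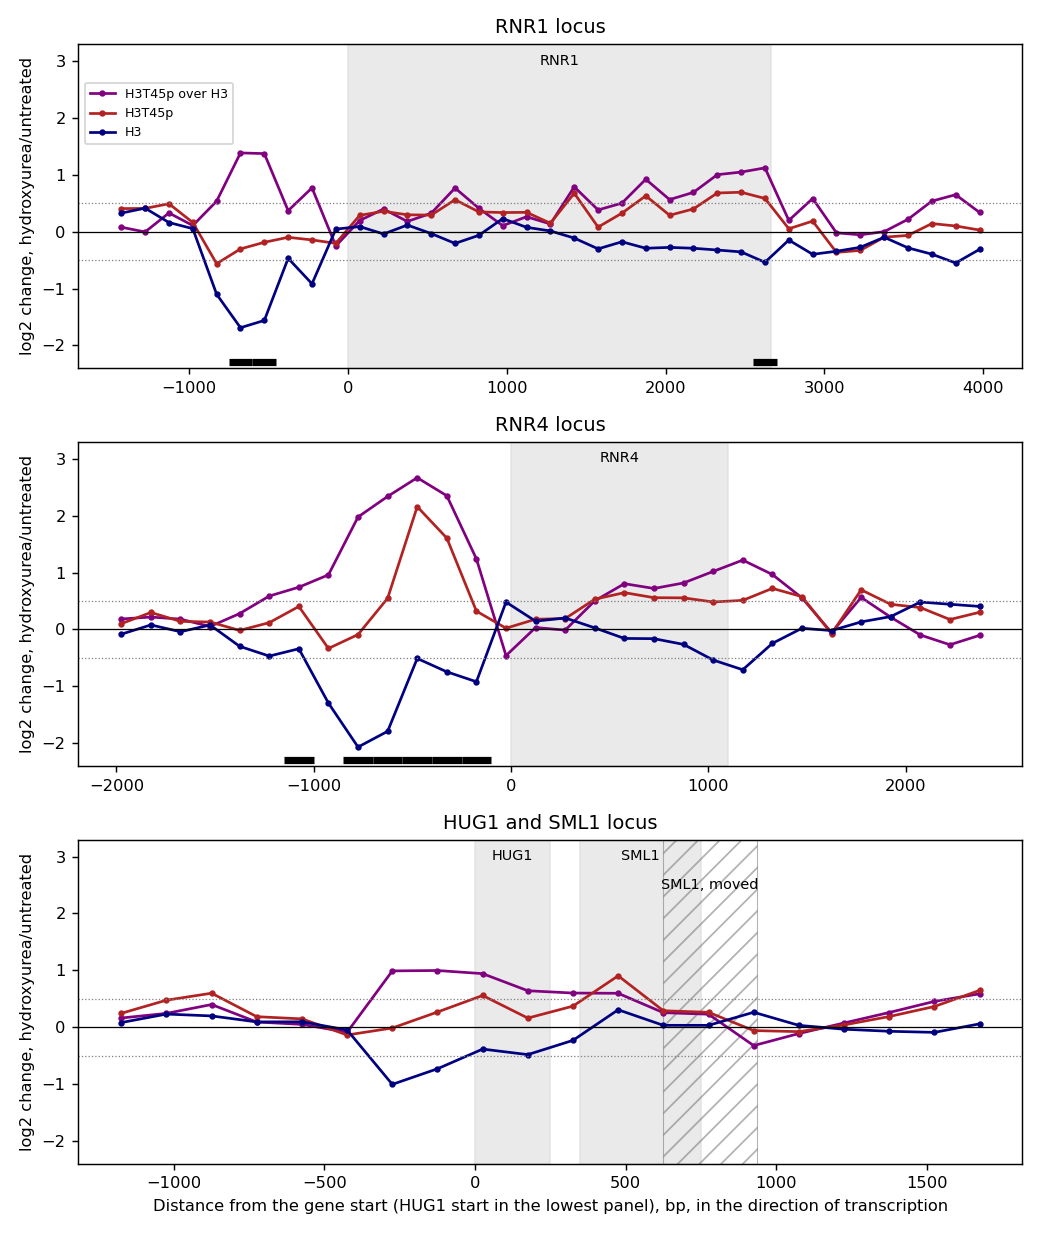
Change of H3T45p over H3, of H3T45p and of H3 per 150 bp window (log2, hydroxyurea over untreated, 28.3 added to each signal) against distance from the gene start. Dotted lines mark 0.5 in either direction, grey spans the genes as placed, the hatched span SML1 by the RefSeq spacing and black bars the peak windows. The largest change of the ratio, 2.67, and the lowest change of H3, -2.07, are in different windows in front of RNR4.

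The promoter side of RNR4 holds 4 windows from chr7:856351 to 856950. Its mean H3T45p signal was 586 in treated and 201 in untreated cells, 2.91 times as high (2.69 to 3.16), and its mean H3 signal was 104.2 in treated and 174 in untreated cells, 0.60 times as high (0.533 to 0.676). The change of the ratio was 2.03, of H3T45p 1.42 and of H3 -0.61. H3 was under 0.5 in size, at -0.36, with 50% of the median added and, at -0.42, as a mean of window log2 values, and H3T45p was at 0.26 with a promoter side of 300 bp. Among all runs of 4 consecutive nuclear windows 8.0% were higher by 0.5 or more in the ratio, 6.87% were higher in H3T45p and 5.1% lower in H3. The window next to the gene, chr7:856351-856500, went the other way, with the lowest change of the ratio at the locus, -0.46. It had the least H3 of the promoter side in untreated cells, with 60.7 in treated and 35.4 in untreated cells, and H3T45p at 56.9 in treated and 55.6 in untreated cells. In the upstream flank of 10 windows the change of the ratio was 0.81 and that of H3 -0.67. Of runs of 10 windows, 5.7% were higher by 0.5 or more in the ratio and 2.81% as much lower in H3. This flank holds the far part of the peak, from chr7:856951 to 857250. Its median change over windows was 0.43 in the ratio and -0.32 in H3. From chr7:857701 to 858450 the changes lay between 0.05 and 0.28 in the ratio and between -0.30 and 0.08 in H3.

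In the body of RNR4 H3T45p was above its untreated signal in all 7 windows, by 0.18 to 0.65 on the log2 scale, and by 0.5 or more in 4. The mean H3T45p signal was 562 in treated and 395 in untreated cells, and the mean H3 signal 392 in treated and 429 in untreated cells. The ratio was 1.43 (1.37 to 1.51) in treated and 0.921 (0.875 to 0.970) in untreated cells, a change of 0.60, where 6.66% of runs of 7 windows were higher by 0.5 or more. It was 0.49 with 50% of the median added and 0.43 with libraries scaled to their nuclear totals. As at RNR1 the 3′ part had the larger change. Over its 4 windows the change was 0.83, and all 4 were higher by 0.5 or more. Over the 3 windows of the 5′ part it was 0.20, and 1 was higher. The mean H3 signal in untreated cells was 504 in the 3′ part and 328 in the 5′ part. The change went on past the gene end, with 1.22 in the window that starts at chr7:855151, where H3T45p was 253 in treated and 169 in untreated cells and H3 was 104.2 in treated and 188 in untreated cells. It was 0.97 at chr7:855001-855150 and between -0.27 and 0.56 in the 7 windows beyond.

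At HUG1, an inhibitor of the enzyme that is named for its induction by hydroxyurea, the ratio was higher in treated cells both before and within the gene, and H3 was below its untreated signal in both, with changes of -0.47 on the promoter side and -0.43 in the body. On the promoter side the change of H3 depends on the windows taken, and was -0.84 with a promoter side of 300 bp, -0.59 as a mean of window log2 values and -0.23 with 50% of the median added in place of 10%. On the promoter side, 3 windows from chr13:158251 to 158700, the mean H3 signal was 69.5 in treated and 106.7 in untreated cells, 0.651 times as high (0.548 to 0.773). The mean H3T45p signal was 109.2 in treated and 103.7 in untreated cells, 1.05 times as high (0.895 to 1.24). In the ratio this is a change of 0.52, where 8.69% of runs of 3 windows were higher by 0.5 or more, and it was 0.27 with 50% of the median added and 0.38 with libraries scaled to their nuclear totals. The windows nearer to the gene carried it. At chr13:158401-158550, which had the least H3 there in untreated cells, H3 was 22.7 in treated and 73.9 in untreated cells, and H3T45p was 75.1 in treated and 76.1 in untreated cells. At chr13:158551-158700, which had the highest change of the ratio at the locus (0.998), H3 was 55.3 in treated and 110.3 in untreated cells, and H3T45p was 151 in treated and 121 in untreated cells. The window farther out, chr13:158251-158400, had changes of -0.09 in the ratio, -0.14 in H3T45p and -0.05 in H3. With windows under 25% of the library's median H3 left out it is the single window on this side, so these are then the changes of the promoter side.

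The HUG1 body holds 2 windows that were dense in H3, at 3.26 and 3.62 times the nuclear median in untreated cells. The mean H3 signal was 705 in treated and 962 in untreated cells, 0.733 times as high (0.685 to 0.784), and the mean H3T45p signal 847 in treated and 665 in untreated cells, 1.27 times as high (1.18 to 1.37). H3T45p over H3 came to 1.20 (1.12 to 1.29) in treated and 0.691 (0.644 to 0.741) in untreated cells. The median log2 ratio of nuclear windows was 0 in each treatment. The ratio of the body lay above that median in treated and below it in untreated cells. Its change was 0.77, where 9.5% of runs of 2 windows were higher by 0.5 or more. Of single windows at or above the nuclear median of untreated H3, 15.7% were. At the first of these windows, chr13:158701-158850, the log2 ratio in untreated cells was the lowest of all 87 windows, -0.74. No peak of either list lies at HUG1 or SML1.

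SML1, the inhibitor of the large subunit that is controlled at the protein level, had the smallest change of the 4 gene bodies. With SML1 as placed, its promoter side is the single window that ends at chr13:159150, with a change of the ratio of 0.60. H3T45p there was 144.5 in treated and 105.3 in untreated cells, and H3 was 68.9 in treated and 85.7 in untreated cells. Its body of 2 windows had a change of 0.35, with a mean H3T45p signal of 391 in treated and 287 in untreated cells and a mean H3 signal of 331 in treated and 315 in untreated cells. With the RefSeq spacing the body is the 3 windows from chr13:159301 to 159750, with a change of 0.11. The mean H3T45p signal was then 599 in treated and 520 in untreated cells, and the mean H3 signal 565 in treated and 531 in untreated cells. The ratio was 1.06 (0.990 to 1.13) in treated and 0.979 (0.913 to 1.05) in untreated cells, and the intervals overlap. The 2 windows between the genes then had a change of 0.62. This rests on few reads, and was 0.38 with SML1 another 10 bp downstream, while the promoter side as placed was at 0.32 with 50% of the median added and at 0.46 with libraries scaled to their nuclear totals. The change of H3 over SML1 was 0.07 as placed and 0.08 with the RefSeq spacing. At chr13:159151-159300, between the H3-dense stretches of HUG1 and SML1, H3T45p was 171 in treated and 78.0 in untreated cells, which is the highest change of H3T45p at the locus, 0.90. The lowest change of the ratio at the locus was -0.32, at chr13:159601-159750, where H3T45p was 390.3 in treated and 408 in untreated cells and H3 was 389 in treated and 319 in untreated cells.

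**Figure D3:**
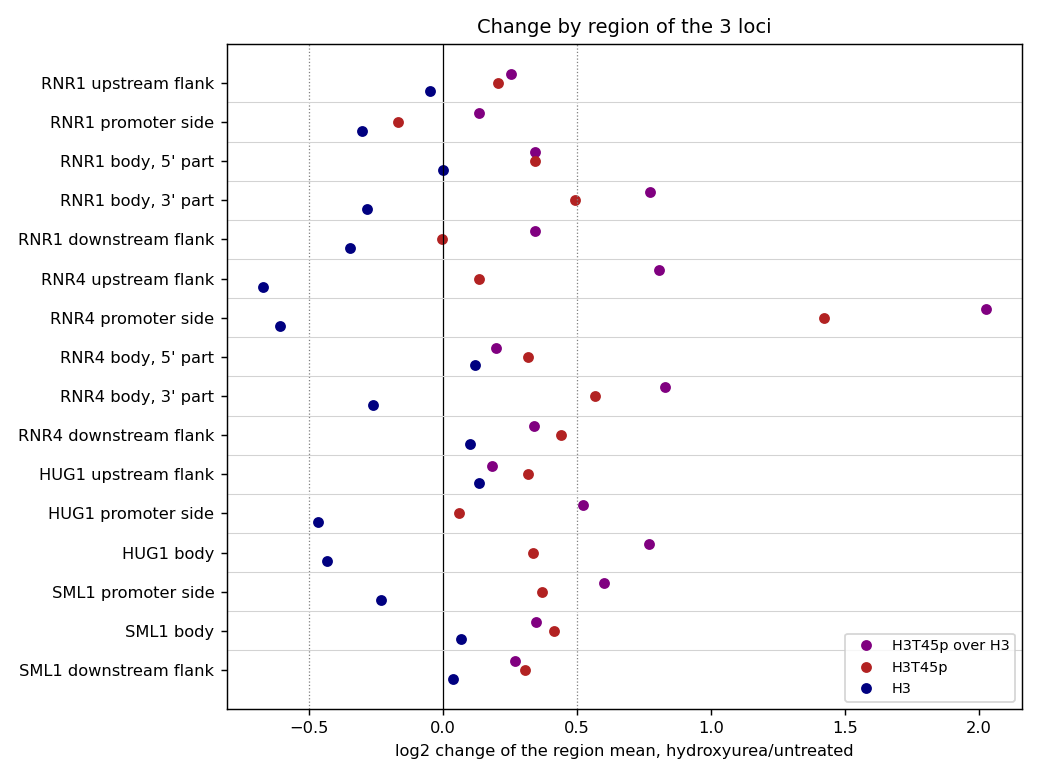
Change of H3T45p over H3, of H3T45p and of H3 (log2 of region means, hydroxyurea over untreated, 28.3 added) for each region, in the order of transcription within a locus. Each point is 1 pair or set of libraries without replicates, and dotted lines mark 0.5. The promoter side of RNR4 stands at 2.03 in the ratio, and the promoter side of RNR1 at 0.13.

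The change of the ratio on the promoter side minus that in the body was 1.43 at RNR4, with a half-width of counting error at 95% of 0.20, and -0.44 at RNR1, with one of 0.26. At HUG1 it was -0.25 (half-width 0.29) and at SML1 as placed 0.26 (0.49), both within counting error, and at SML1 with the RefSeq spacing it was 0.51 (0.34). At RNR4 the difference rests on the windows 0.25 to 0.55 kb from the gene, and with a promoter side of 300 bp in place of 500 bp it was 0.17. At HUG1 it turned to 0.23 (half-width 0.35) with 300 bp, and was -0.41 (0.18) with 50% of the median added. With windows poor in H3 left out it was -0.86 (0.44) at HUG1, with 1 window on the promoter side. At RNR1 it was -0.25 as a mean of window log2 values, smaller in size than its half-width of 0.26. For H3 alone this difference was -0.49 at RNR4 (half-width 0.15), with changes of -0.61 on the promoter side and -0.12 in the body. At RNR1 it was -0.15 (0.18) and at HUG1 -0.03 (0.20), both within counting error. As a mean of window log2 values it was -0.31 at RNR1 and -0.16 at HUG1. With windows poor in H3 left out it turned to 0.19 (0.26) at RNR1 and 0.39 (0.29) at HUG1. Each then had 1 window left on the promoter side. With 50% of the median added it turned to 0.15 at HUG1.

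From the mean signals, the flanks of RNR1 and those of HUG1 and SML1 had changes of the ratio under 0.5 in size. As a mean of window log2 values, the upstream flank of RNR1 was at 0.54, with H3 at -0.48 in place of -0.05. Upstream of HUG1, towards NTE1 in R64, all 5 windows had changes of the ratio between 0.05 and 0.40, with a mean H3T45p signal of 555 in treated and 439.9 in untreated cells and a mean H3 signal of 565 in treated and 512 in untreated cells. Downstream of SML1 as placed, towards CMP2, the change was 0.27, with 1 of 7 windows at 0.5 or more. That window, which starts at chr13:160351, had the highest H3T45p signal of the locus in treated cells, 957 against 601 in untreated cells. Downstream of RNR1, towards TDA2, the change was 0.34, with H3T45p at 232.0 in treated and 232.7 in untreated cells and H3 at 197 in treated and 259 in untreated cells. The 4 windows of the locus farthest upstream of RNR1, from chr5:297451 to 298050, had changes of the ratio of at most 0.33, and both signals were above their untreated values there, H3 by 0.05 to 0.41.

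**Figure D4:**
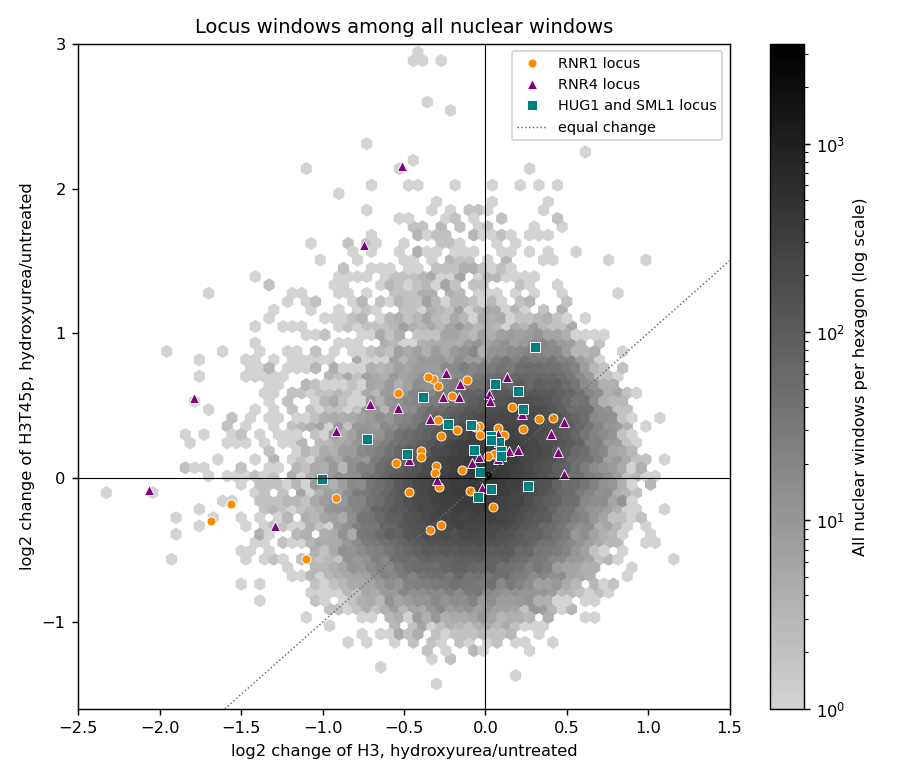
Change of H3T45p against change of H3 (log2, hydroxyurea over untreated) for the 87 windows of the loci, coloured by locus, over all 80474 nuclear windows in grey on a log colour scale. Windows above the dotted line have a higher ratio of H3T45p over H3 in hydroxyurea. Windows in front of RNR4 lie at the upper and left edges of the cloud, with changes of H3T45p up to 2.16 and of H3 down to -2.07.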

How the data were processed

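Each library's table, as deposited by the authors, holds a signal per window of 150 bp, and a peak list gives positions only. Dividing each signal by the library's smallest non-zero value gave a whole number throughout (100% of values, to within 0.001 of a read), so whole reads were recovered. They served for exact binomial intervals at 95%, which cover counting error only. The submitters' processing notes name DESeq and BWA 0.5.9-r16 but give neither a task, and the genome build and peak rule were not given in the sources used here. A region's value is the log2 ratio of its mean signals with 28.3 added, in Python 3.11.15 with scipy 1.17.1. The changes per window and the binomial intervals were tested on simulated reads with counting error only. There only H3T45p in treated cells was changed, and region means, runs of windows and peaks were not simulated. With 1 library per group no test can be made, and a log2 change of 0.5 was called by size, beside the share of all nuclear windows, or of all runs of as many windows, past it.

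The 4 genes, the regions and the settings were chosen with earlier results of these data known. Windows given in full are, per locus, those with the least untreated H3 on each promoter side, the highest and lowest change of the ratio and the highest H3T45p signal in hydroxyurea. Other windows were named after their values were seen. Other genes of the pathway were not measured, since the annotation is not shown to be of the files' build. Reads that RNR1 may share with its paralog RNR3, and RNR4 with RNR2, could not be told apart from their own. The authors' tables of the difference between H3T45p and H3 were not used here.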

Additional observations from a re-analysis of the deposited data

How the results depend on the processing

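No paired analysis was possible because each group holds 1 library and the treatments share no replicate number. With 50% of the median added in place of 10%, the change of the ratio was 0.47 in the RNR1 body, 1.45 on the RNR4 promoter side, 0.49 in the RNR4 body and 0.27 on the HUG1 promoter side, and promoter side minus body was 0.96 at RNR4. The windows higher in the ratio were then 25, those lower in H3 8, and those higher and lower in H3T45p 10 and 0. Of all nuclear windows 6.36% were then higher in the ratio, 2.43% lower in H3, and 4.51% higher and 0.598% lower in H3T45p. With windows under 25% of the median H3 left out, 73 of the 87 windows remained. The change was then -0.25 on the RNR1, 2.26 on the RNR4 and -0.088 on the HUG1 promoter side. The promoter sides of RNR1 and HUG1 had 1 window left each, and the change turned negative at both. Promoter side minus body was then -0.82 at RNR1, 1.66 at RNR4 and -0.86 at HUG1. Of the remaining windows 10 were lower in H3 and 0 in H3T45p, and SML1's promoter side as placed had no window. The share of nuclear windows under this filter was not taken. Scaled to each library's total of nuclear reads, the bodies of RNR1, RNR4 and HUG1 were at 0.40, 0.43 and 0.59. Higher in the ratio were 26 windows and lower 1, where 5.61% and 15.8% of nuclear windows were. In H3 2 were higher, where 5.55% were, and in H3T45p 11, where 4.47% were. The body changes and the counts higher in the ratio and H3T45p are smaller in part by construction, since the scale moves all windows. From the mean of window log2 values the RNR4 promoter side was at 1.45 and its difference from the body at 0.89. With a promoter side of 300 bp RNR4 was at 0.77 and HUG1 at 0.999, promoter side minus body at 0.17 and 0.23, and the difference in H3T45p at RNR4 reversed to -0.22. At a log2 change of 1, 12 windows were higher in the ratio, 7 lower in H3, and 2 higher and 0 lower in H3T45p. Of all nuclear windows 1.82% were higher in the ratio, 0.472% lower in H3, and 0.701% higher and 0.132% lower in H3T45p. In an alternative chosen after seeing the data, RNR4 was given its R64 length of 1038 bp from the 3′ end used, and SML1 was placed by the R64 spacing. The RNR4 promoter side was then at 1.70, its difference from the body at 1.09 and the SML1 body at 0.11. With SML1 another 10 bp downstream, chosen likewise, 1 window leaves its body, which was then at 0.034. The cause of other moves was not tested. Centring on the genome median and a peak overlap of 75 bp moved no count past 1.5 times and no region beyond counting error. Windows of 20 to 70 reads carry wide intervals and limit what can be said of the H3-poorest windows.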
